A study of Mus musculus with 3 samples.

Results

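The cells described here are 798 cells of mouse cochlear organoids on day 5 of differentiation that carried transcripts of Osr1 or Aqp1 on a mesenchymal background. They were chosen from raw transcript counts (unique molecular identifiers, UMIs). Kept barcodes had at least 500 genes and at most 20% of their UMIs on mitochondrially encoded genes, which left 13850 day 5 cells. Of these, 4400 held Otor at 2000 CPM or more and Epcam at 240 CPM or less, where CPM is the count of a gene scaled to 1000000 UMIs of the cell, and are called Otor-gated here. The members were the 798 gated cells in which the UMIs of Osr1 and Aqp1 together outnumbered those of Bgn and Grin2b together. They made up 5.76% of kept day 5 cells (exact Clopper-Pearson 95% interval 5.38 to 6.16%) and 18.1% of the Otor-gated cells. The other 3602 Otor-gated cells comprised 2307 with the opposite majority, called Bgn/Grin2b cells here, and 1295 ties, 1006 of which held no UMI of any of the 4 genes.

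The study profiled C57BL/6 organoids grown in 3 dimensions from Lgr5+ cochlear progenitor cells, with 1 library (10x Genomics 3' chemistry) in each of 3 groups. One group was taken in expansion medium (passage 2, day 8), which held EGF, bFGF, IGF, CHIR99021, Y-27632 and LPA. The others were taken on day 5 in differentiation medium with RA, Shh, BDNF, bFGF, A83-01 and LY4115775, and on day 25, after LY4115775 had been removed from day 5 onward. All 3 groups shared the same earlier expansion, trypsin dissociation and sorting of single living cells by DAPI.

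The mesenchyme around the cochlear duct comes from periotic mesenchyme and later forms the spiral ligament, the spiral limbus and the cells under the basilar membrane. Otor encodes otoraplin, a small secreted protein of otic mesenchyme and cartilage, and Epcam encodes an adhesion molecule of epithelia. Osr1 is a zinc finger transcription factor of early mesoderm and of connective tissue progenitors, and Aqp1 is a water channel that in the adult cochlea marks a class of spiral ligament fibrocytes. Bgn encodes the matrix proteoglycan biglycan and Grin2b a subunit of the NMDA glutamate receptor. Klf2, a transcription factor best known from endothelium under flow, and Epha5, a receptor tyrosine kinase of the ephrin pathway, were named as further markers of these cells.

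The promoters of 5 genes on which the description turns are shown to place the loci and to let the counts of CACCC below be read. These are Aqp1 from the rule, the markers Klf2 and Epha5, and Cav1 and Cavin2, which encode a pair of structural proteins of caveolae. Of these genes and Osr1, 5 of 6 matched an entry (all but Osr1). Each window is a RefSeq promoter on build GRCm38.p6, from 250 bases before to 50 bases after the gene's start in RefSeq, written 5′ to 3′ on the gene's own strand. Gene spans given further on are those of GENCODE, which starts Aqp1 downstream of its RefSeq window. For Cav1, the first of its 2 RefSeq windows is given. Capitals mark CACCC on either strand (read as GGGTG on the other), the core bound by Krüppel-like factors.
Aqp1, chr6:55336049-55336348, plus strand: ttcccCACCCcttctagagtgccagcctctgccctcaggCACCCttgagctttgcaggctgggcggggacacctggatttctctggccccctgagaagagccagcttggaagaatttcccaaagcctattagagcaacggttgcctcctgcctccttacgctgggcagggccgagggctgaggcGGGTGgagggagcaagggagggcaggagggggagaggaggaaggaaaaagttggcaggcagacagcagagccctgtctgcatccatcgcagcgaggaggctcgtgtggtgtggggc
Klf2, chr8:72318812-72319111, plus strand: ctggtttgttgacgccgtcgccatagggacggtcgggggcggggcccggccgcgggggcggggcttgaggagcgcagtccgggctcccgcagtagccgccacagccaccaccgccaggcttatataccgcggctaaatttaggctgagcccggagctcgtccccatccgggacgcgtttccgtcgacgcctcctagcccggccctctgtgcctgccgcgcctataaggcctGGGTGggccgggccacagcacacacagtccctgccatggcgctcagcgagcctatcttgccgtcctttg
Epha5, chr5:84417333-84417632, minus strand: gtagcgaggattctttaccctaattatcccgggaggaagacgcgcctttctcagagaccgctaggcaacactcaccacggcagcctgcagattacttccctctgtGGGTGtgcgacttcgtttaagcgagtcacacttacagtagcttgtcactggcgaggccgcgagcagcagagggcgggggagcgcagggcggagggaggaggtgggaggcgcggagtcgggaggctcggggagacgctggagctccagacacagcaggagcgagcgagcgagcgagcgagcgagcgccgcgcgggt
Cav1, chr6:17306085-17306384, plus strand: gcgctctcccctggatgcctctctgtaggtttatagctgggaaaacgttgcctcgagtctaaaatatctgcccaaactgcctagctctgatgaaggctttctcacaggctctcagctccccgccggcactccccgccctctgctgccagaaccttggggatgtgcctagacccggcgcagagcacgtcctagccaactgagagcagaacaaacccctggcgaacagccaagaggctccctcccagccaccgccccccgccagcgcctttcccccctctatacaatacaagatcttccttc
Cavin2, chr1:51288876-51289175, plus strand: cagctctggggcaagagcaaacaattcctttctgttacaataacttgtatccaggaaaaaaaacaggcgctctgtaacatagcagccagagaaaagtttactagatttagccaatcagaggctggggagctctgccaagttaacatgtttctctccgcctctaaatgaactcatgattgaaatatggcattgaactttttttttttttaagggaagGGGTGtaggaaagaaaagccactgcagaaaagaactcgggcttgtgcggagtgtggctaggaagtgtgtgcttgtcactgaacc

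CACCC occurred 3 times in the Aqp1 window, once each in those of Klf2, Epha5 and Cavin2, and not in the Cav1 window shown. The other Cav1 window (chr6:17307390-17307689) held 1. It was also present in 57.5% of all 32851 promoter windows. A match describes letters in a window and was not tied to binding.

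**Figure D1:**
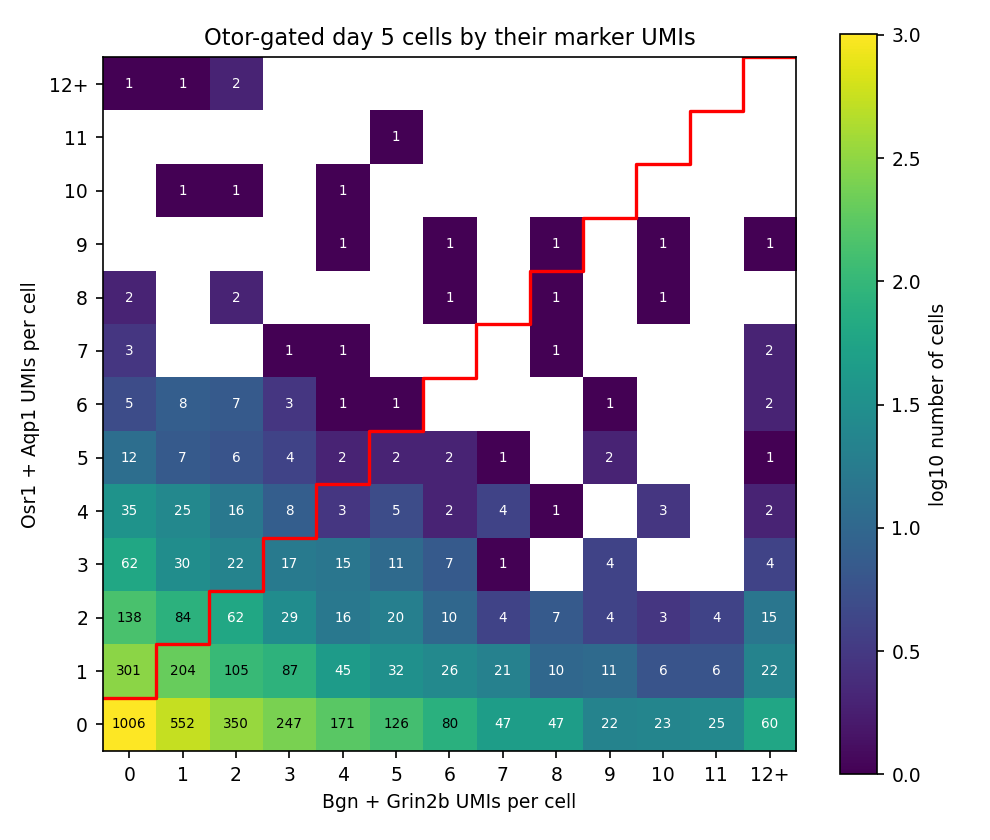
Number of Otor-gated day 5 cells at each combination of Bgn + Grin2b UMIs per cell (horizontal axis) and Osr1 + Aqp1 UMIs per cell (vertical axis), with the log10 number of cells as colour and the number printed in each square; cells above the red line are the members. Most members lie next to the line, with 301 cells at 1 Osr1 or Aqp1 UMI and 0 Bgn or Grin2b UMIs, beside 1006 cells with none of the 4.

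The rule rested on few transcripts. Of the 798 members, 526 (65.9%) held Aqp1 but no Osr1 UMI, 199 (24.9%) held both and 73 (9.15%) held Osr1 alone. The excess over Bgn and Grin2b was a single UMI in 419 members, 2 UMIs in 190 and at least 3 in 189. A Bgn UMI was present in 27.4% of members and a Grin2b UMI in 4.14%. No Epcam UMI was found in 634 members, 1 in 146 and more in 18. The choice needed a UMI, and the share of members differed with depth but did not rise at every step. Members were 9.28% of gated cells with fewer than 2000 UMIs and 20.5% of those with 4000 to 8000. Their share was 16.6% at 8000 to 16000 UMIs and 23.8% at 16000 or more. The cause of these differences was not tested.

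The genes of the rule chose the cells, so their levels are a description only. From here on, levels are in CPM of the summed UMIs of a class of cells unless given per cell, and their intervals cover counting error only. Osr1 (chr12:9570116-9581500) stood at 70.3 CPM in members, 7.07 CPM in the other Otor-gated cells and 3.11 CPM in all other kept day 5 cells. Aqp1 (chr6:55336432-55348555) stood at 254, 45.5 and 14.6 CPM in the same order. Otor was at 7165 CPM in members, 9067 CPM in other gated cells and 2006 CPM in all other kept cells. Per member, Otor ranged from 2030 to 23825 CPM with a median of 6523 CPM. Bgn was at 56.5 CPM in members and 335 CPM in other gated cells, and Grin2b at 6.09 and 61.7 CPM. Epcam was at 34.0 CPM in members, 28.5 CPM in other gated cells and 1006 CPM in all other kept cells.

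Transcripts of these genes were also found outside the gate. An Otor UMI was present in 100% of gated cells and in 53.9% of the 5230 day 5 cells with Epcam at 1000 CPM or more (Epcam-high cells). The source of these transcripts was not tested. An Aqp1 UMI was present in 33.4% of gated cells and in 2.60% of Epcam-high cells, and an Osr1 UMI in 9.57% and 0.593%. Median depth was 6046 UMIs in members, 6059 in other gated cells and 6367 in Epcam-high cells. The Aqp1 and Osr1 shares in gated cells were therefore above those in Epcam-high cells, at a like median depth.

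Levels of the genes given here differed between cells just inside and just outside each threshold, in part from groups of 17 to 23 cells. The 17 members with Otor at 2000 to 2200 CPM had 1081 CPM Klf2, 251 CPM Cav1 and 0 CPM Spp1. The 23 cells just below that bound, at 1800 to 2000 CPM, had 715 CPM Klf2, 200 CPM Cav1 and 770 CPM Spp1. The 70 members with Epcam at 160 to 240 CPM had 969 CPM Klf2 and 897 CPM Epha5, against 426 and 635 CPM in the 17 cells just above that bound. Gated cells with an excess of 1 UMI had 652 CPM Klf2 and 107 CPM Cav1, against 507 and 68.6 CPM in the ties just outside. Farther from that bound, members with an excess of 3 or more UMIs had 736 CPM Klf2 and 145 CPM Cav1.

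Members were close to the other Otor-gated cells in library quality. They held a median of 2220 genes and 3.49% mitochondrial UMIs, against 2242 genes and 3.5% in other gated cells. Ribosomal protein genes took 25.5% of UMIs in members and 23.8% in other gated cells. A doublet caller marked 1.5% of members, 2.53% of other gated cells and 5.79% of cells outside the gate. It marked 4.69% of all kept day 5 cells, against an expected 11.6% set from an assumed 0.8% per 1000 barcodes. The called doublets were kept, and uncalled ones may remain. Of the members' barcodes, 10 also occurred among the expansion library's barcodes and 0 among those of day 25.

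The label mesenchyme-like was checked against markers. Of 13 mesenchyme markers, 10 were measured at 20 CPM or more in either class. Against all other kept day 5 cells, 8 of these 10 were at least 2-fold higher in members and 2 at least 2-fold lower, with a median log2 ratio of 1.70. Over all 6483 genes measured in that contrast, 451 (6.96%) were 2-fold higher, 619 (9.55%) were 2-fold lower and the median was 0.04. Vim, an intermediate filament of mesenchyme, was at 1185 CPM in members and 367 CPM in all other kept cells. Col3a1, a fibrillar collagen, was at 244 and 62.7 CPM, and Pou3f4, the POU factor of otic mesenchyme whose loss causes deafness, at 312 and 68.3 CPM. The 2 exceptions were the small proteoglycans Dcn, at 49.0 CPM in members and 924 CPM in all other kept cells, and Lum, at 70.7 and 860 CPM. With these included, the 13 markers summed to 2412 CPM in members, 2299 CPM in other gated cells and 2746 CPM in Epcam-high cells. In Epcam-high cells Dcn was at 1285 CPM and Lum at 1231 CPM. Against the other gated cells, 4 of the 10 had positive ratios and 0 were 2-fold apart, with a median log2 ratio of −0.03. The markers were thus shared by the gated cells and did not set the members apart. Col1a1, the main collagen of most fibroblasts, had 2 UMIs in all members together (0.338 CPM).

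Markers of other cell types were low for epithelium, blood and kidney and higher for a few single genes of other lists. The 14 epithelial markers summed to 48.7 CPM in members and 1147 CPM in Epcam-high cells, and all 6 of those measured were 2-fold lower than in all other kept cells. Krt8 was at 1.35 CPM in members and 23.7 CPM in Epcam-high cells. Among kidney and urogenital genes, chosen because Osr1 also marks intermediate mesoderm, 7 of 10 had no UMI in members (among them Pax2, Pax8, Lhx1 and Wt1), which allows up to 0.507 CPM each. The mesothelial genes Msln, Upk3b, Upk1b, Lrrn4 and Wt1 had none either. All 5 erythroid genes and the macrophage genes C1qa, C1qb and Ptprc were at 0. The 8 endothelial markers summed to 689 CPM in members, 691 CPM in other gated cells and 57.4 CPM in cells outside the gate, nearly all of it from Emcn, a sialomucin usually read as endothelial (649 CPM in members and 638 CPM in other gated cells). Of the others, Pecam1 (0.338 CPM), Cdh5 (1.52 CPM) and Cldn5 (0.169 CPM) were near 0. The VEGF receptor gene Kdr was at 12.7 CPM in members, 30 CPM in other gated cells (2.37-fold lower in members) and 6.98 CPM in all other kept cells. Tek was at 8.45 CPM in members and 2.02 CPM in all other kept cells, and Flt1 at 6.42 and 1.61 CPM.

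The 10 neuronal markers summed to 93.1 CPM in members, 111 CPM in other gated cells and 34.0 CPM in cells outside the gate. Syt1, a synaptic vesicle protein, made up most of this, at 86.7 CPM in members and 26.1 CPM in all other kept cells (3.33-fold), while Elavl3, Neurod1 and Stmn2 were at 0. The 6 melanocyte markers summed to 39.0 CPM in members, 57.9 CPM in other gated cells and 8.57 CPM in cells outside the gate. Of these the receptor gene Kit was at 36.0 CPM in members and 13.6 CPM in all other kept cells (2.65-fold), and Dct and Tyr were at 0. The 12 hair cell markers summed to 279 CPM in members, 341 CPM in other gated cells, 1060 CPM in cells outside the gate and 199 CPM in Epcam-high cells. The 7 glial markers summed to 30.6 CPM in members, 35.8 CPM in other gated cells and 326 CPM in cells outside the gate, and the 9 pericyte and smooth muscle markers to 18.9, 23.9 and 8.40 CPM in the same order. The part of such cells in the results was not tested, apart from leaving out the sub-cluster with hair cell genes described further on.

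Against all other kept day 5 cells, the gene with the largest ratio outside the rule, among named genes at 50 CPM or more, was Cav1, the main coat protein of caveolae, at 127 CPM in members and 14.8 CPM in the rest (8.58-fold). Cntn3, an adhesion molecule of the contactin family, followed at 53.4 and 7.43 CPM (7.19-fold). Cavin2, which shapes the caveolar coat, had 232 and 32.8 CPM (7.09-fold), and Nav3, a microtubule-associated neuron navigator, had 90.8 and 12.9 CPM (7.06-fold). The markers Epha5, at 835 and 126 CPM (6.65-fold), and Klf2, at 714 and 119 CPM (6.03-fold), were also among the 15 highest. The matrix and adhesion genes Sned1 (450 and 68.7 CPM), Flrt2 (238 and 38.6 CPM) and Ddr2 (143 and 23.7 CPM) belonged to the same 15. Emilin2, a matrix glycoprotein of cells under the basilar membrane, had 1147 and 192 CPM, and the potassium channel gene Kcnk2 had 758 and 130 CPM. Rarres2, which encodes the chemoattractant chemerin, had 144 and 24.0 CPM.

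Set against the other gated cells, the ratios of these genes were smaller. They ran from 1.40-fold for Emilin2 (1147 CPM in members and 819 CPM in other gated cells) and 1.41-fold for Kcnk2 (758 and 537 CPM) through 1.81-fold for Cavin2 (232 and 128 CPM), 1.85-fold for Cntn3 and 1.88-fold for Sned1, Nav3 and Klf2 to 2.00-fold for Rarres2 (144 and 71.9 CPM) and 2.47-fold for Cav1. Of 12 measured transcription factors of otic and head mesenchyme, 8 were 2-fold higher than in all other kept cells, as were 6.96% of all genes. Their median log2 ratio there was 1.55. Against the other gated cells, however, 0 of the 12 were 2-fold apart, with a median of 0.04. Pou3f4 was at 312 and 286 CPM in members and other gated cells, and Tbx18, a T-box factor of otic mesenchyme, at 233 and 228 CPM. Within this list Nr2f1, an orphan nuclear receptor, had the largest positive ratio, with 378 CPM in members and 216 CPM in other gated cells. Prrx2, a homeobox gene, had the largest negative one, with 71.3 and 134 CPM.

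Between members and the other Otor-gated cells, few genes were far apart. Of 6024 genes at 20 CPM or more in either class, 9 (0.149%) were at least 2-fold higher in members and 47 (0.78%) at least 2-fold lower, counted on CPM + 1 and leaving out the 6 genes of the rule. The median log2 ratio over all 6024 genes was −0.03, and the central 95% of genes lay between −0.56 and 0.45. With a single library and cells chosen on their own transcripts, no test was run and no p-value is given. The same counts against the Bgn/Grin2b cells alone were 25 higher (0.413%) and 72 lower (1.19%) of 6054 genes.

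**Figure D2:**
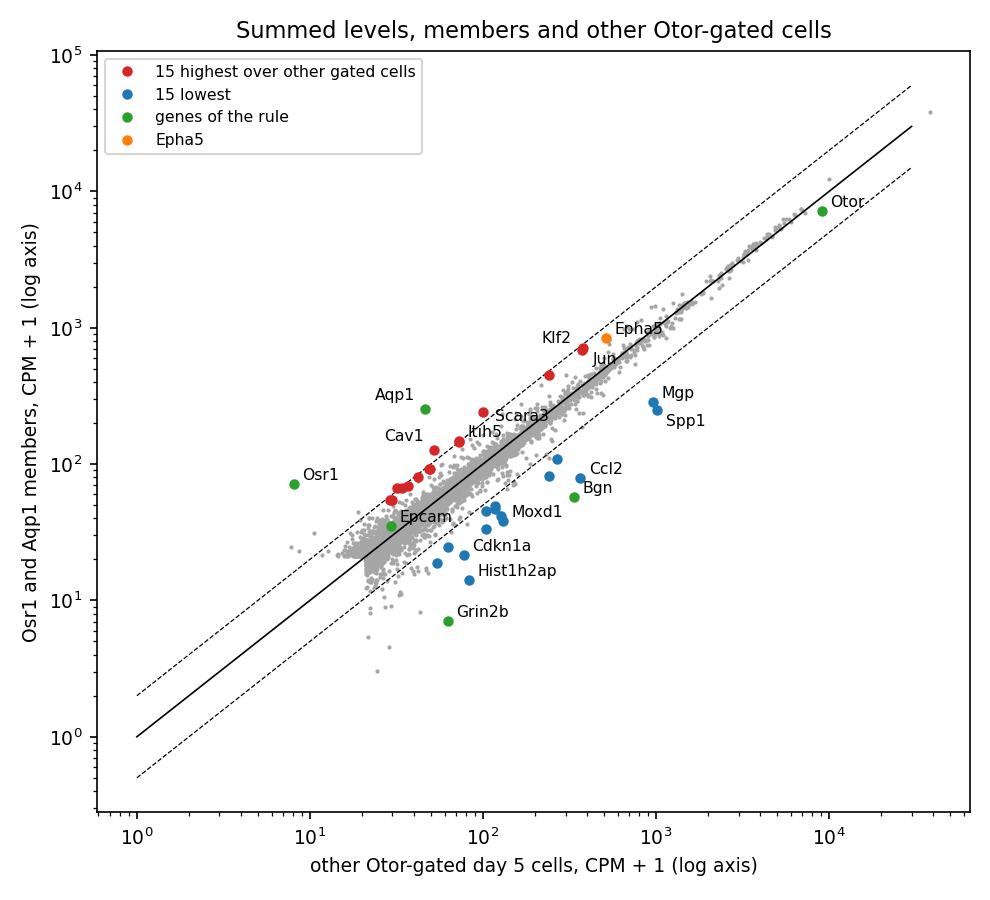
Summed level of each measured gene in the other Otor-gated day 5 cells (horizontal) and in the Osr1 and Aqp1 members (vertical), both as CPM + 1 on log axes; the solid line marks equality and the dashed lines 2-fold. Nearly all genes lie between the dashed lines; the 15 highest over other gated cells include Cav1 and Scara3, and the 15 lowest include Spp1, Ccl2 and Mgp.

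The 9 genes higher in members included Cav1, Scara3, Itih5 and Pltp. Cav1 (chr6:17306335-17341452) was at 127 CPM in members and 51.4 CPM in other gated cells, 2.47-fold (95% counting interval 2.25 to 2.71). At least 1 Cav1 UMI was found in 42.2% of members, 21.7% of other gated cells and 2.28% of Epcam-high cells. After thinning each cell to 2000 UMIs, the shares were 19.3%, 9.17% and 0.453%. Scara3, a scavenger receptor of the oxidative stress response, had 239 CPM in members and 98.6 CPM in other gated cells (2.42-fold, 2.26 to 2.58). Itih5, a hyaluronan-binding matrix protein, had 146 and 71.4 CPM (2.05-fold), and the phospholipid transfer protein Pltp had 66.3 and 30.8 CPM (2.15-fold). Against all other kept day 5 cells, at 363 CPM, Itih5 was 2.48-fold lower in members. Transcripts of Itih5 and Scara3 were common in epithelium, with a UMI in 73.7% and 54.1% of Epcam-high cells. Crabp2, a retinoic acid-binding protein, had 30.3 and 9.51 CPM (3.18-fold, 2.61 to 3.88). The other 4 of the 9 were the tight junction gene Cldn11 (23.7 and 6.74 CPM), which had the largest ratio, Serping1 (43.3 and 18.0 CPM), Wdr86 (38.2 and 18.6 CPM) and the unnamed model AI593442 (22.1 and 7.64 CPM), picked out after their values were seen.

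Klf2 and Epha5, the markers that took no part in the rule, were higher by less than 2-fold. As markers they were named with results of these same cells known, so their levels are a description only. Klf2 (chr8:72319033-72321656) was at 714 CPM in members and 380 CPM in other gated cells, 1.88-fold (1.81 to 1.95). It was detected in 80.3% of members, 60.0% of other gated cells and 22.7% of Epcam-high cells, and after thinning in 61.8%, 41.0% and 5.98%. Per member, Klf2 ranged from 0 to 4227 CPM with a median of 543 CPM. Epha5 (chr5:84054761-84417382) was at 835 and 512 CPM, 1.63-fold (1.58 to 1.69). It was detected in 91.5% of members, 76.1% of other gated cells and 7.59% of Epcam-high cells, and after thinning in 70.5%, 55.8% and 2.29%. Its per-member median was 683 CPM in a range of 0 to 5279 CPM. Without thinning, each of the 2 genes was thus found in most members and most other gated cells. Both the share of cells and the amount differed.

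The genes lower in members included Spp1, Ccl2, Mgp and Cdkn1a. Spp1, which encodes the secreted phosphoprotein osteopontin, was at 249 CPM in members and 1016 CPM in other gated cells (4.08-fold lower, 3.87 to 4.30). The chemokine gene Ccl2 was at 77.9 and 364 CPM (4.68-fold lower, 4.26 to 5.15). Its neighbour on chromosome 11, Ccl7, was at 32.5 and 103 CPM, and the chemokine gene Cxcl1 at 40.4 and 126 CPM. Mgp, an inhibitor of matrix calcification, was at 283 and 963 CPM (3.40-fold lower), and the collagen-repeat gene Cthrc1 at 80.6 and 240 CPM (2.98-fold lower). Moxd1, a monooxygenase relative of dopamine beta-hydroxylase, was at 37.4 and 130 CPM (3.48-fold lower). The membrane transporter gene Ank was at 46.1 and 116 CPM, and the Wnt inhibitor Wif1 at 44.0 and 104 CPM. Crym, a thyroid hormone-binding protein, was at 109 and 265 CPM.

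Some cell cycle inhibitors were among the lower genes. Of 8 measured, 0 were 2-fold higher and 3 were 2-fold lower in members, beside 0.149% and 0.78% of all genes, with a median log2 ratio of −0.63. Cdkn2b, which encodes the inhibitor p15, was at 3.55 CPM in members and 27.5 CPM in other gated cells (7.76-fold lower, 5.03 to 12.6). Cdkn2a, the neighbouring gene of the locus, was at 7.27 and 42.1 CPM (5.79-fold lower, 4.27 to 8.05). Cdkn1a, the p53 target that encodes p21, was at 20.6 and 76.2 CPM (3.70-fold lower). Cdkn1c ran the other way, with 171 CPM in members and 112 CPM in other gated cells.

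Few genes of dividing cells reached the 20 CPM needed to be measured. Of 15 S phase genes 2 were measured and of 15 genes of G2 and mitosis 1, Hmgb2 (119 CPM in members and 132 CPM in other gated cells), and 0 were 2-fold apart. The histone gene Hist1h2ap was at 13.2 CPM in members and 82.6 CPM in other gated cells (6.26-fold lower); histone genes of this cluster are near-identical, so reads may be split among them. The G2 and mitosis genes, most of them below that minimum, summed to 160 CPM in members, 256 CPM in other gated cells and 153 CPM in cells outside the gate. After thinning to 2000 UMIs, 4.99% of members (38 of 762 cells), 6.25% of other gated cells and 5.14% of all other kept cells held at least 2 such UMIs. At least 2 UMIs of S phase genes were held by 4.33%, 6.15% and 3.84%. These shares rest on few UMIs per cell and name no cycling class.

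All 14 immediate early genes, which respond to stimuli within minutes, had positive ratios against the other gated cells. Their median log2 ratio was 0.58, beside −0.03 over all 6024 genes. Past 1.5-fold were 7 of the 14 and 77 of all 6024 genes, and 0 of the 14 reached 2-fold. Jun was at 687 CPM in members and 373 CPM in other gated cells (1.84-fold, 1.78 to 1.91), Atf3 at 151 and 83.0 CPM (1.82-fold) and Btg2 at 276 and 165 CPM (1.67-fold). Fos was at 1433 and 982 CPM, and Egr1 at 806 and 532 CPM. Against all other kept cells, 1 of the 14 was 2-fold higher, 2 were 2-fold lower and 5 had positive ratios, with a median log2 ratio of −0.14. Of all genes in that contrast, 6.96% were 2-fold higher and 9.55% 2-fold lower. There Atf3 was at 151 CPM in members and 43.7 CPM in all other kept cells (3.46-fold), Zfp36 at 162 and 96.9 CPM, Fos at 1433 and 1602 CPM and Btg2 at 276 and 580 CPM. The Krüppel-like factors other than Klf2 had a median of 0.57 over 7 measured, with Klf4 at 97.9 and 56.3 CPM and Klf9 at 96.2 and 63.3 CPM. Klf4 and Klf6 are in both lists.

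Signalling genes were mostly alike in members and other gated cells. Over all 6024 genes, 0.149% were 2-fold higher and 0.78% 2-fold lower, with a median log2 ratio of −0.03. Of 13 measured BMP and TGF-beta genes, 0 were 2-fold higher and 2 were 2-fold lower, among them the ligand Tgfb1 (8.11 and 28.2 CPM). Bmp4, a ligand of the same family, was at 39.2 and 21 CPM (1.86-fold). Of 12 measured Wnt genes, 1 was 2-fold lower, Wif1, while Axin2, a feedback target of the pathway, was at 98.7 and 81.5 CPM. All 6 measured retinoic acid genes had positive ratios, with a median of 0.32 and with Crabp2 as the one past 2-fold; the dehydrogenase Dhrs3 was at 136 and 85.6 CPM, the synthesis enzyme Aldh1a2 at 47.2 and 38.8 CPM and the receptor Rarb at 90.9 and 74.1 CPM. Hes1, a Notch target, was at 14.9 CPM in members and 47.1 CPM in other gated cells (3.17-fold lower), and was the sole Notch gene measured. Of 6 measured IGF genes, Igfbp7 was lower (15.6 and 41.2 CPM), whereas Igfbp2 was at 1769 and 1404 CPM. No gene was 2-fold apart among 8 FGF, 5 Hedgehog, 8 semaphorin and plexin and 7 further Eph and ephrin genes. Among these Epha3 was at 31.6 and 19.5 CPM and the FGF feedback gene Spry4 at 23.3 and 38.2 CPM.

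Matrix genes went both ways, and the basement membrane list had mostly negative ratios. Of 10 measured basement membrane genes, 9 had negative ratios, with a median log2 ratio of −0.46, beside −0.03 over all genes. Of the 10, 1 was 2-fold lower, beside 0.78% of all genes. That gene was Col4a1, a basement membrane collagen chain, at 12.8 CPM in members and 27.0 CPM in other gated cells. Lama4, a laminin chain, was at 75.6 and 120 CPM. Of 5 fibrillar collagen genes, 0 were 2-fold apart, with a median of −0.07. Of 15 measured proteoglycan, elastic fibre and matricellular genes, 1 was 2-fold lower, Thbs1 (7.94 and 26.1 CPM), and 1 was past 1.5-fold higher, the microfibril gene Mfap4 (40.6 and 26.4 CPM). Itih5 and Sned1, in neither list, were higher, as given above. All 8 measured chondrocyte genes, of interest because Otor is also a cartilage gene, were 2-fold lower than in all other kept cells, with a median of −3.20. In that contrast 9.55% of all genes were 2-fold lower. Against the other gated cells 1 of 6 was 2-fold lower, Col9a1, at 70.7 and 152 CPM, and Col2a1 was at 717 and 780 CPM.

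Genes related by function to the water channel were few. Aqp2, Aqp3 and Aqp6 had no UMI in members, and Aqp11 was at 15.4 CPM in members and 10.9 CPM in other gated cells. Of 4 measured genes for ion and fluid transport, 0 were 2-fold apart; the carbonic anhydrase Car2 was at 83.5 and 157 CPM. Of 7 measured cochlear fibrocyte genes, 1 was 2-fold higher, Cav1, beside 0.149% of all genes. The median log2 ratio of these 7 was −0.35, beside −0.03 over all genes. Gjb2, a connexin of fibrocytes and supporting cells, was at 52.7 and 49.8 CPM. Of 5 measured glutamate receptor subunit genes besides Grin2b, 0 were 2-fold apart.

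**Figure D3:**
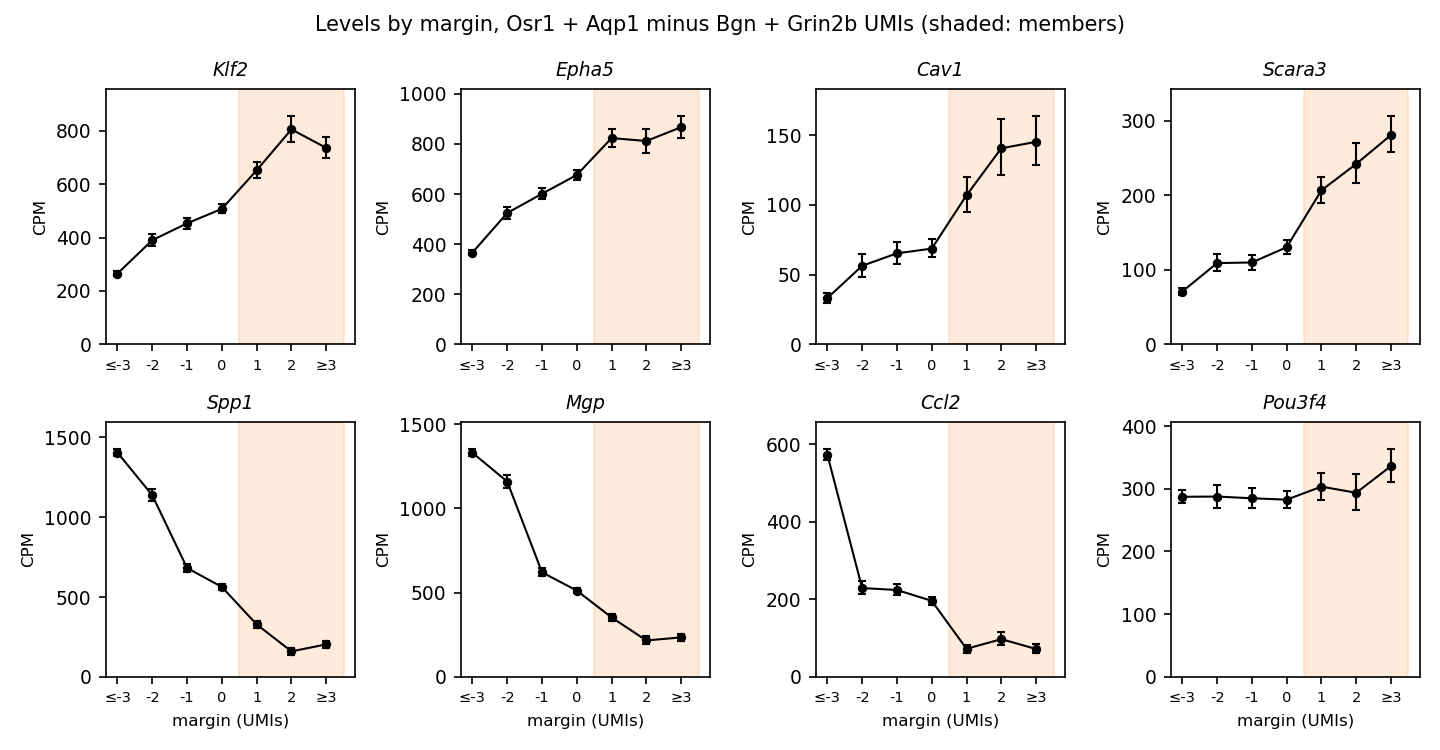
Level of 8 genes in CPM, each with its 95% Poisson interval, in Otor-gated day 5 cells grouped by the margin of the rule, Osr1 + Aqp1 minus Bgn + Grin2b UMIs per cell (horizontal axis, from −3 or less to 3 or more); the shaded groups are members. Klf2, Epha5, Cav1 and Scara3 are higher and Spp1, Mgp and Ccl2 lower toward the members, whereas Pou3f4 stays between 283 and 336 CPM.

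For most of the genes plotted, levels differed across the whole range of the margin, also among cells that are not members. Across margins of −3 or less, −2, −1, 0, 1, 2 and 3 or more UMIs, with 1129, 468, 710, 1295, 419, 190 and 189 cells, Cav1 was at 33.1, 56.3, 65.2, 68.6, 107, 141 and 145 CPM. Epha5 was at 366, 524, 601, 676, 824, 812 and 867 CPM. The gene was thus already higher among ties than among cells with more Bgn and Grin2b. Klf2 was at 265, 390, 453, 507, 652, 805 and 736 CPM, with its highest value at 2 UMIs. Spp1 ran the other way, at 1405, 1138, 682, 563, 329, 159 and 203 CPM. Ccl2 was at 573, 229, 224, 196, 72.3, 97.1 and 71.8 CPM, with 1 step at the far end and another at the bound of the rule. Median depth was 7551 UMIs at −3 or less, 5175 at 0 and 6916 at 3 or more.

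The joint presence of the rule's genes was counted without and with thinning. Without thinning, an Aqp1 UMI was found in 58.9% (54.0 to 63.6%) of the 421 gated cells with an Osr1 UMI and in 30.7% (29.3 to 32.2%) of the 3979 without, and a Bgn or Grin2b UMI in 61.3% (56.4 to 66.0%) and 64.8% (63.3 to 66.3%). In the 4012 gated cells with at least 2000 UMIs, thinned to that number, an Aqp1 UMI was found in 20.0% (13.8 to 27.4%) of the 145 cells with an Osr1 UMI and in 13.8% (12.7 to 14.9%) of the 3867 without. The thinned intervals overlap, whereas those without thinning do not. The direction was the same, and thinning left 145 cells with an Osr1 UMI in place of 421. The part of depth in this difference was not tested. After thinning, a Bgn UMI, counted here without Grin2b, was found in 23.4% (16.8 to 31.2%) of cells with Osr1 and in 37.3% (35.8 to 38.9%) of those without. For Aqp1 the Bgn shares were 31.4% (27.6 to 35.4%) and 37.7% (36.1 to 39.4%). Spp1 and Klf2 are outside the rule but were named from these same cells, so their shares are a description only. Spp1 was present in 11% of cells with Osr1 and 27.9% without, and in 16.4% with Aqp1 and 29.1% without. Klf2 was present in 60.7% with Osr1 and 43.7% without, and in 51.5% with Aqp1 and 43.2% without.

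The 73 members with Osr1 alone differed from the 526 with Aqp1 alone. Of 6172 genes measured, 44 (0.713%) were 2-fold higher and 106 (1.72%) 2-fold lower in the Osr1 cells, a contrast in which the smaller class gives wide intervals. Cav1 was at 191 CPM in Osr1 cells and 94.6 CPM in Aqp1 cells (2.02-fold, 1.58 to 2.56), and Klf2 at 958 and 633 CPM. Ccl2 was at 215 and 72.2 CPM (2.97-fold, 2.33 to 3.76), and Jun at 1046 and 587 CPM. In the 199 members with both genes, Ccl2 was at 55.9 CPM, Cav1 at 168 CPM, Klf2 at 797 CPM and Jun at 776 CPM. A Ccl2 UMI was found in 9.90% of all members, and the counting interval leaves out this uneven spread over cells. Moxd1 was at 8.59 and 52.2 CPM, resting on 4 UMIs in the Osr1 cells. The alarmin gene Il33 was at 27.9 and 85.0 CPM, and the protease inhibitor gene Serpine2 at 88.0 and 187 CPM. Epha5, at 936 and 790 CPM, was closer.

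Clustering of the members alone gave 6 sub-clusters, numbered here and not named, described by the genes that separated them. The leading genes of sub-cluster 2, with 196 cells, were Cav1 (241 CPM, against 87.5 CPM in other members), Arhgap29 (52.1 and 18.9 CPM), Crabp2 (57.4 and 20.9 CPM), Itih5 (272 and 103 CPM), Nnat (62.0 and 26.1 CPM), Apod (131 and 58.2 CPM) and Aldh1a2 (80.5 and 35.7 CPM). Its Klf2 level was 1058 CPM, its Osr1 level 106 CPM and its Spp1 level 17.2 CPM. Sub-cluster 1, with 144 cells, had Moxd1 (120 and 23.5 CPM), Serpine2 (369 and 116 CPM) and Crym (234 and 88.0 CPM) in front, that is, genes that were lower in members than in other gated cells or in Osr1 than in Aqp1 cells. Its Cav1 was at 30.7 CPM, its Klf2 at 487 CPM, its Osr1 at 28.3 CPM and its Otor at 8841 CPM. Sub-cluster 3, with 205 cells, led with matrix genes at small ratios, such as Col11a2 (53.9 and 27.5 CPM) and Cpxm2 (52.8 and 26.0 CPM). Sub-cluster 4, with 176 cells, was the least distinct, and its leading gene, Riiad1, was 1.70-fold higher (57.1 and 33.5 CPM). Aqp1 varied little among the 6, between 219 and 276 CPM.

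**Figure D4:**
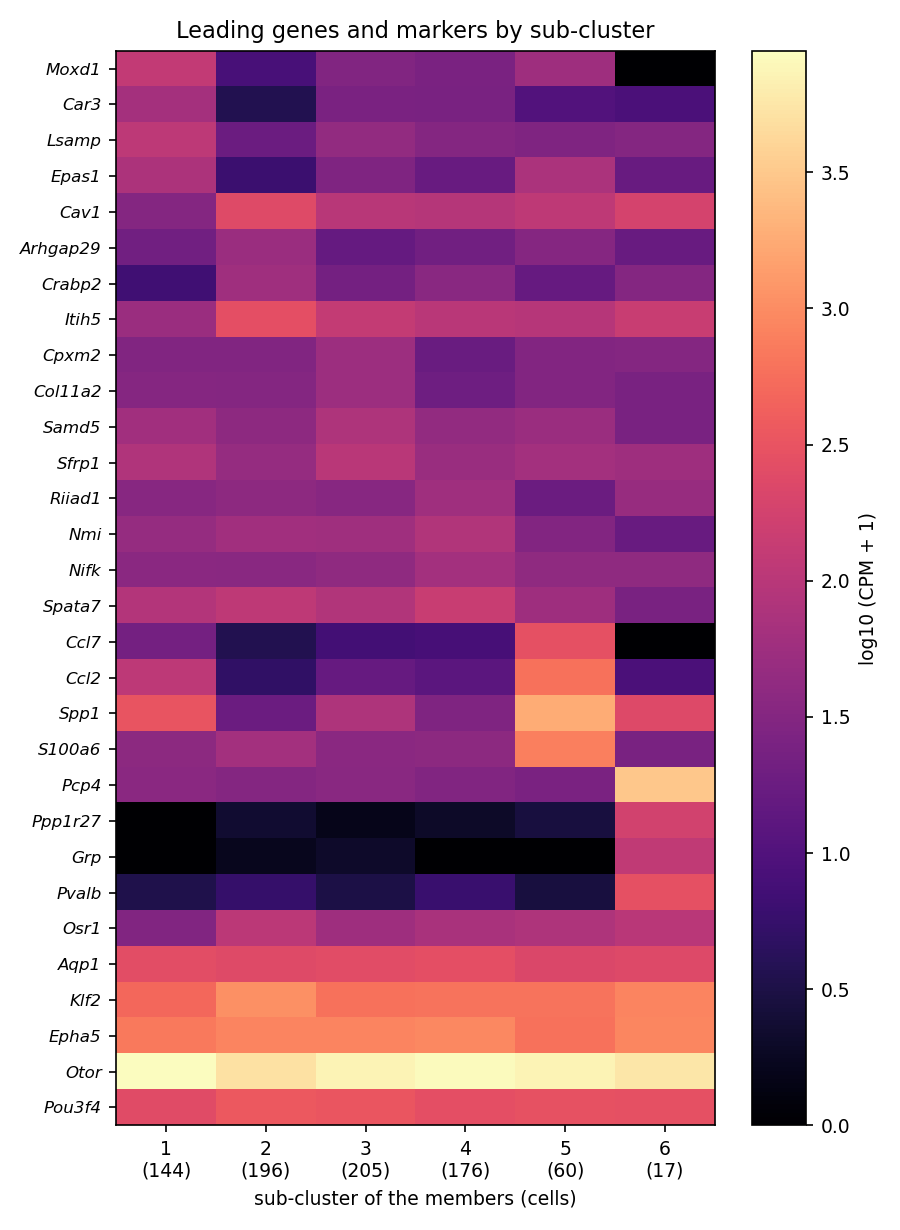
Level as log10 of CPM + 1 (colour) of leading genes and markers (rows) in the 6 sub-clusters of the members (columns, number of cells in brackets), to be read along each row. Cav1, Crabp2 and Itih5 are highest in sub-cluster 2, Ccl2, Ccl7, Spp1 and S100a6 in sub-cluster 5, and Pcp4, Grp and Pvalb in sub-cluster 6, whereas Aqp1 lies between 219 and 276 CPM and Epha5 between 603 and 939 CPM.

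Much of the members' chemokine and osteopontin signal came from the 60 cells of sub-cluster 5. Ccl7 was at 283 CPM there and 7.62 CPM in the other members, Ccl2 at 601 and 26.0 CPM, Spp1 at 1813 and 94.2 CPM and the calcium-binding S100a6 at 776 and 43.5 CPM. These cells held 968 of the members' 1475 Spp1 UMIs and 321 of their 461 Ccl2 UMIs. Ptgs2, the inducible cyclooxygenase, was at 120 and 7.80 CPM and the matrix protease Mmp9 at 86.2 and 9.85 CPM. Osr1 (78.7 CPM) and Otor (7338 CPM) in these cells were within the range of the other sub-clusters, Aqp1 (219 CPM) and Epha5 (603 CPM) were the lowest of the 6, and 1.67% of the cells were called doublets. In the remaining 738 members Cav1 was 2.49-fold and Klf2 1.9-fold higher than in other gated cells.

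Sub-cluster 6 held 17 cells led by genes of hair cells, among them Pcp4 (3107 and 31.4 CPM), Pvalb (282 and 3.28 CPM), Acbd7 (761 and 12.3 CPM) and Pou4f3 (110 and 0.864 CPM), the last a transcription factor of hair cell survival. Their Otor was at 5680 CPM and their Epha5 at 902 CPM, and 29.4% of them were called doublets. The part of doublets in this signal was not tested beyond that share. Without these cells Cav1 was 2.44-fold, Klf2 1.87-fold and Epha5 1.63-fold higher in members than in other gated cells.

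The same rule, applied to the other libraries, gave cells that took no part in the choice on day 5. It found 44 members of 2276 gated cells in expansion and 93 of 348 on day 25. Their summed depth was 173079 and 793696 UMIs, against 5915750 UMIs for the day 5 members, so a gene without UMIs could still be at up to 17.3 CPM in expansion and 3.78 CPM on day 25. Each group is a single library, so day and library cannot be told apart. The contrasts below are within a library.

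**Figure D5:**
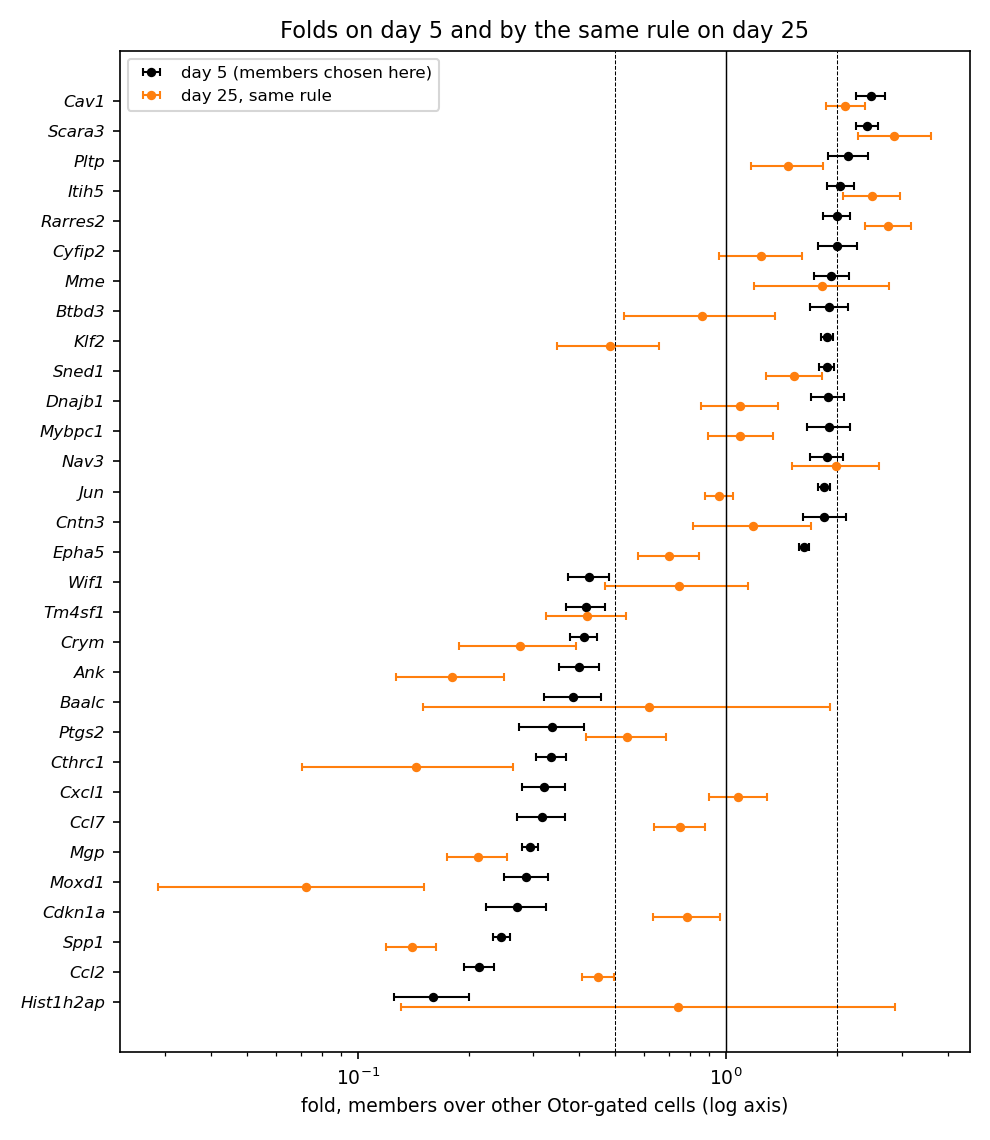
Ratio of members to other Otor-gated cells with its 95% counting interval (log axis) for the 15 genes highest and the 15 lowest on day 5 and for Epha5, on day 5 (black, the cells that chose the genes) and for the same rule on day 25 (orange); dashed lines mark 2-fold. Cav1, Scara3, Itih5 and Rarres2 lie right of equality and Spp1, Mgp, Moxd1 and Cthrc1 left of it on both days, while Klf2 and Epha5 change sides.

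The genes lower on day 5 were mostly lower on day 25 as well. Of the 47, 41 were measured on day 25, and 36 of these (87.8%) had a negative ratio there, as did 44.9% of all 6985 genes measured on day 25; 24 were 2-fold lower and 1 was 2-fold higher, against 226 (3.24%) and 142 (2.03%) of all genes. Spp1 was at 215 CPM in day 25 members and 1537 CPM in other gated day 25 cells, and Mgp at 160 and 756 CPM. Moxd1 was at 8.82 and 122 CPM, and Cthrc1 at 13.9 and 96.1 CPM. Ccl2 was at 558 and 1241 CPM, whereas Cxcl1 was at 226 and 209 CPM. The 1 gene called in the opposite direction was the immune receptor gene Cd244 (113 and 48.8 CPM), named after its value was seen.

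Of the 9 genes higher on day 5, 6 were measured on day 25; 5 of these (83.3%) had a positive ratio, as did 55.1% of all genes, and 3 were 2-fold higher. These were Cav1, at 641 CPM in members and 304 CPM in other gated cells (2.11-fold, 1.87 to 2.38), Scara3, at 212 and 73.8 CPM (2.87-fold, 2.28 to 3.61), and Itih5, at 315 and 127 CPM (2.49-fold, 2.08 to 2.98). Rarres2, just under the bound on day 5, was at 496 and 180 CPM (2.76-fold, 2.38 to 3.19). The markers did not follow. Klf2 was at 61.7 CPM in day 25 members and 128 CPM in other gated day 25 cells, and Epha5 at 183 and 261 CPM. The ratios were 0.48 (0.35 to 0.66) for Klf2 and 0.70 (0.58 to 0.84) for Epha5, so that both were lower in day 25 members. The immediate early genes had a median log2 ratio of −0.04 on day 25, with 6 of 14 positive. Apod, a lipocalin that was at 76.7 and 63.9 CPM on day 5, was at 5241 CPM in members and 2331 CPM in other gated cells on day 25.

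In expansion the 44 cells carry 8 Osr1 and 40 Aqp1 UMIs in all. Of the 2232 other gated expansion cells, 2210 were ties and 22 were Bgn/Grin2b cells. On day 5 most other gated cells were Bgn/Grin2b cells, so the 2 contrasts are unlike. Of the 47 genes lower on day 5, 14 were measured in expansion and 8 (57.1%) had a negative ratio there, as did 43.6% of all genes. Of the 9 higher genes 3 were measured and 2 were positive. Cav1 was at 40.4 CPM in the expansion members, from 7 UMIs, and 20.2 CPM in the other gated expansion cells. Klf2 rested on 2 UMIs in these members. In expansion 383 of 5445 genes (7.03%) were past 2-fold upward and 284 (5.22%) downward, at a depth at which few UMIs make such a ratio.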

How the data were processed

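Single-cell 3' libraries of expansion, day 5 and day 25 organoids were used as deposited. The deposited matrices are UMI counts; per the file headers, Cell Ranger 3.0.1 made those of expansion and day 5 and Cell Ranger 3.1.0 that of day 25; cell-calling settings and the annotation release are not given in the sources used here. Per the submitters' processing notes the builds were GRCm38 and hg38. Of 31053 gene IDs, 30934 had a GRCm38 position in GENCODE M21, from which gene coordinates were taken. Deposited barcodes numbered 29098, 14452 and 6613, of which 27996, 13850 and 6264 were kept.

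UMIs were summed over the cells of a class and scaled to CPM (numpy 2.4.6). Genes were called higher or lower at a 2-fold ratio of CPM + 1 with at least 20 CPM in either class; folds printed beside pairs of levels are ratios of CPM with exact conditional intervals. Intervals are at 95%, floors are 3 UMIs of the class total, and both cover counting error only: PCR and the choice of cells are not in them. Shares have Clopper-Pearson intervals (scipy 1.17.1). For thinning, cells were drawn to 2000 UMIs, leaving out 36 members and 352 other gated cells. Doublets were called with Scrublet in scanpy 1.11.5 and kept, as the rule does not remove them. Members were sub-clustered with Leiden on 15 principal components. Data simulated with known folds were used to check the counting.

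Cells of 1 library are not replicates and the members were chosen on these counts, so no test was run. The members and the 37 gene lists were chosen with earlier results of these data known. Named genes were the 15 highest and 15 lowest against other gated cells and the 15 highest against all other kept cells with at least 50 CPM, leaving out ribosomal, mitochondrial and unnamed genes, with the largest ratios within each list and the leading genes of the sub-clusters; some others are given for context. Alternatives were a pseudocount of 5 CPM, scaling by TMM (edgeR 4.0.16) or by median of ratios, a minimum of 1 CPM, means of per-cell CPM, thinning, doublet removal, other thresholds of the rule, and, added after seeing the data, leaving out sub-clusters 5 and 6.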

Additional observations from a re-analysis of the deposited data

How the results depend on the processing

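The number of members was 379 with a margin of at least 2 UMIs, and between 617 and 883 under the other settings tried, against 798. Against the other Otor-gated cells, 9 genes were higher and 47 lower. With a minimum of 1 CPM in place of 20 these counts were 33 and 210, over more genes tested; against the Bgn/Grin2b cells alone they were 25 and 72. Per-cell means gave 5 higher genes, thinning 14 and a margin of at least 2 UMIs 15. Both other scalings gave 9 and 47, with all of the original genes among them. Leaving out sub-cluster 5 gave 12 higher and 61 lower genes. Against all other kept cells a minimum of 1 CPM gave 913 higher and 1722 lower genes, against 451 and 619; TMM gave 419 and 665. For single named genes, 165 of 2484 values moved past their counting interval in some setting and none changed sides. The cause of these shifts was not tested. No paired analysis was possible because each group is 1 library. Depth limits Osr1, whose absence from a cell at a median of 6046 UMIs does not show that the gene is silent there.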

Other observations

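Donor sex was mixed in every class. UMIs of Xist without any of 4 Y-linked genes were found in 45.1% of members, 42.9% of other Otor-gated cells and 38.4% of all other kept day 5 cells, and Y-linked UMIs without Xist in 25.4%, 26.7% and 28.4%. Both kinds of cell were present among the members. UMIs of Xist and of Y-linked genes together were found in 9.77%, 7.27% and 9.27% of the same classes. Neither was found in 19.7%, 23.1% and 23.9%. The part of doublets in the cells with both was not tested. In the shallower 400 members, Klf2 was at 784 CPM and Epha5 at 926 CPM, and in the deeper 398 at 683 and 793 CPM; in other gated cells the same split gave 438 and 640 CPM in shallower and 356 and 460 CPM in deeper cells.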
